A study of Mus musculus with 9 samples.

Results

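Genes of thyroid hormone handling were followed in the hypothalamus of mice with and without Clic1. They were Trh, Trhr, Slco1c1, Crym, Dio2, Thra, Thrb, Klf9 and Hr, chosen by name for their place in the pathway, and they make up 9 of the 14351 genes of the deposited table. RNA was sequenced from hypothalami of male mice on normal chow, with 1 library per mouse. The KO group held 5 mice (K2, K4, K6, K8 and K10) with Clic1 deleted in the whole body, and the WT group held 4 WT littermates (W1, W3, W9 and W11). The strain is given as C57b/6J in the sample labels and as CD-1 in the methods of the study, and the labels also carry a protocol for frozen perigonadal fat. The age of these mice is not given in the sources used here. No hormone level, drug or diet change is part of the labels, so each comparison below is KO against WT only. Whether the mice were fed or fasted when killed is not given in the sources used here. On chow, the study found lower food intake and body weight in KO mice, and the part of this in the values below was not tested.

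Thyroid hormone reaches the hypothalamus mostly as the precursor thyroxine (T4), and carriers such as the product of Slco1c1 move it across the blood vessel wall and into glial cells. The enzyme made from Dio2, found in astrocytes and in the tanycytes that line the third ventricle, removes an iodine to give the active hormone triiodothyronine (T3), which binds nuclear receptors made from Thra and Thrb and alters genes such as Klf9 and Hr. In neurons of the paraventricular nucleus T3 lowers Trh, whose product, thyrotropin-releasing hormone (TRH), drives the release of thyroid-stimulating hormone (TSH) from the pituitary through the receptor made from Trhr. TRH also lowers food intake and raises heat production.

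Upstream or coding stretches of 3 genes, Trh, Dio2 and Thra, are shown for features known from this pathway, not all of them particular to these genes. The 250 bases before the RefSeq start of Trh (GRCm38.p6, chr6:92244651-92244900, minus strand) and of Dio2 (GRCm38.p6, chr12:90739039-90739288, minus strand) are printed 5′ to 3′. Capitals mark TGACCT, the receptor half-site letters, in Trh and TGACGTCA, the letters of the cyclic AMP response element, in Dio2.
Trh: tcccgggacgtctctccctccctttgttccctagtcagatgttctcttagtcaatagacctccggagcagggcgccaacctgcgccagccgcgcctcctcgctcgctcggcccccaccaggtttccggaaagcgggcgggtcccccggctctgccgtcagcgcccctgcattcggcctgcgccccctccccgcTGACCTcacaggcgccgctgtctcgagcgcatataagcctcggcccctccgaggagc
Dio2: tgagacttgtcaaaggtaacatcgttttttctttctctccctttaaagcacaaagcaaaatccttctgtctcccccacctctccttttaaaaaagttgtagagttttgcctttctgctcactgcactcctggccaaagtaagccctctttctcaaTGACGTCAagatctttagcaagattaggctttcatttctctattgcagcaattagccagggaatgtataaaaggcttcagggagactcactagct
The half-site in Trh lay 57 to 52 bases before the start, and the element in Dio2 lay 95 to 88 bases before it. Read on both strands (TGACCT or AGGTCA), the half-site letters were present in 14.0% of the 32851 promoter windows of RefSeq over the same 250 bases, and TGACGTCA, which reads the same on both strands, in 1.55%. Of the 6 windows found for members, which belong to 5 genes, 2 held the half-site (Trh and 1 of Thrb) and 1 held the element (Dio2). These matches describe letters, not binding.

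The coding sequence of Trh carries the hormone several times over. A search of its coding transcript (GENCODE M21, GRCm38) for in-frame codons for glutamine, histidine, proline and glycine between pairs of lysine or arginine codons found 5 copies, each of which can be cut out and amidated to 1 TRH molecule. The capitals are the 4 codons of the hormone and its amide donor.
Copy 1, chr6:92243088-92243111: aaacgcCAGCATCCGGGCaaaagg
Copy 2, chr6:92242992-92243015: aaacgaCAGCACCCTGGCcgacgt
Copy 3, chr6:92242857-92242880: aagcggCAGCACCCTGGCaggcga
Copy 4, chr6:92242803-92242826: aagaggCAGCATCCAGGCcggagg
Copy 5, chr6:92242710-92242733: aaacgtCAGCATCCTGGCaaaagg
The coding sequence of Dio2 reads through an in-frame TGA, normally a stop, as selenocysteine, the residue at the active site of deiodinases. The first of 2 such codons, codon 130, is in capitals.
Dio2, chr12:90729793-90729855, minus strand: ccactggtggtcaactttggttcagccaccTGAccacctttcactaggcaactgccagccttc

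Clic1 was read first, as the check of the labels. Its normalized CPM values, reads of a gene scaled to the size of the library, were 1.93, 1.32, 0.733, 1.25 and 1.43 in K2, K4, K6, K8 and K10, and 5.52, 4.66, 5.3 and 3.58 in W1, W3, W9 and W11. All 5 KO libraries lay below all 4 WT libraries, with a log2 difference of -1.80 (SE 0.27, limma adjusted p = 0.0153, exact permutation p = 0.0159). The call was lost without W1, W3 or W9 (adjusted p up to 0.0893). K10 is titled and labelled as WT but described as a K library, and was grouped as KO by that description. Its Clic1 level lay among the KO libraries, so it was kept in that group. Because that level bore on the choice, the test with all 5 KO libraries is no independent check of K10. Without K10 the Clic1 log2 difference was -1.84 (SE 0.29, limma adjusted p = 0.00494, exact permutation p = 0.0286). The group difference of each of the 9 genes is also given without K10. Ranks of level and nearest profiles include K10. K10 stood apart in other ways. An estimated 20.8 M reads stood behind it, where the other KO libraries had 5.45 to 7.72 M and WT libraries 7.28 to 11 M, and its median rank correlation with the other libraries was 0.974, against 0.99 to 0.993 for the rest. Over all genes limma called 41 (0.286%) at an adjusted p under 0.05, of which 20 (0.139%) were higher and 21 (0.146%) lower in the KO mice. Without K10 it called 87 (0.606%), and with K10 counted as WT it called 5 (0.0348%).

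None of the 9 genes passed the test. The adjusted p ran from 0.688 (Thra) to 0.956 (Klf9) with all 5 KO libraries and from 0.14 to 0.986 without K10. At an unadjusted p under 0.05 limma held 1 of the 9 (Thra), against 933 of all genes (6.5%), and limma-voom on estimated reads held 2 (Thra and Trhr), against 7.84% of all genes. Without K10 limma again held 1 (Thra), against 10.5% of all genes. Log2 differences on the log2(CPM + 0.1) scale, KO minus WT, lay between -0.26 (Trhr) and 0.28 (Crym), with 3 above 0 and 6 below. Their median was -0.04, where the median of all genes was 0.00089 and the middle 50% of all genes spanned -0.09 to 0.10. For 8 of the 9 genes the 95% interval stayed within a 1.5-fold change in either direction, as it did for 77.5% of all genes. Crym, the lowest of the 9, was the exception.

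**Figure D1:**
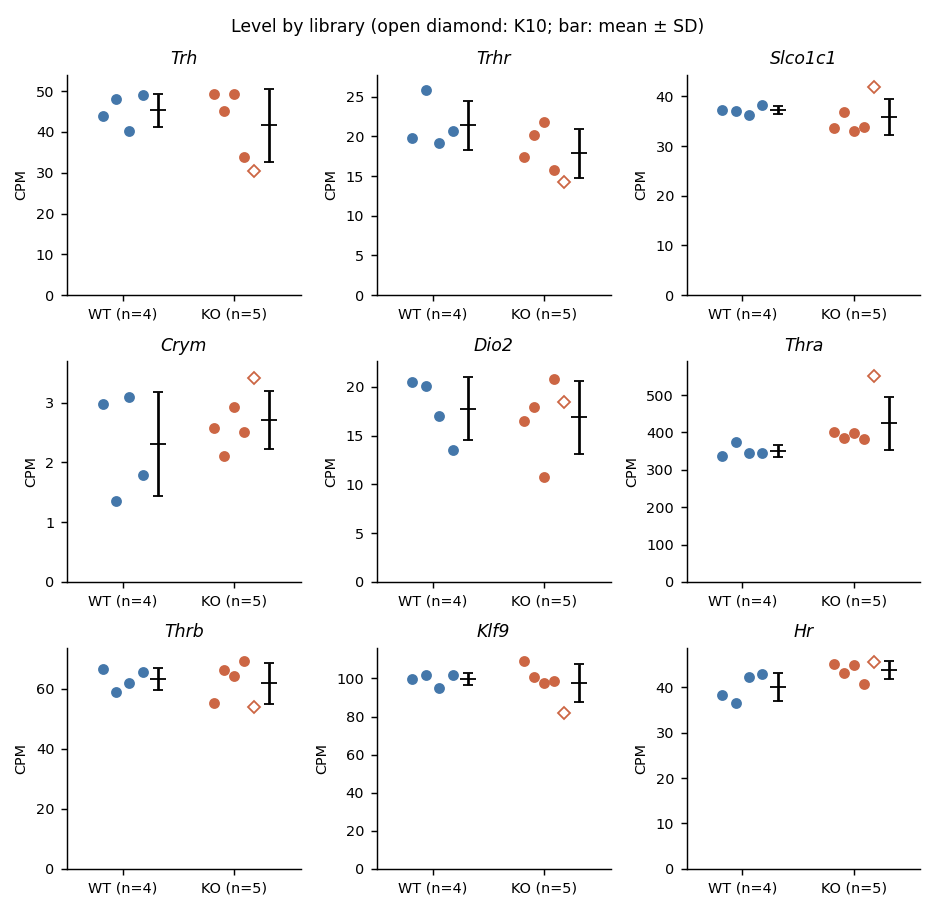
Normalized CPM of the 9 genes in each library, WT left and KO right, with the mean ± SD of 4 WT and 5 KO libraries beside the points and K10 as an open diamond. Thra is the only panel in which every KO point lies above every WT point, and K10 is an end point of the range in 8 of 9 panels.

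Levels were first ranked per kilobase of merged exon over all 9 libraries. Thra stood highest at 84.7 ± 14.0 CPM per kb (SD, n = 9), followed by Trh at 31.2 ± 5.09 and Klf9 at 20.5 ± 1.53. Thrb (8.44 ± 0.722), Slco1c1 (7.02 ± 0.53), Hr (6.09 ± 0.447) and Trhr (4.86 ± 0.852) formed a middle group. Dio2 (2.97 ± 0.575) and Crym (0.745 ± 0.198) were lowest. Neighbours whose ranges overlapped were Trh and Klf9, Thrb and Slco1c1, Slco1c1 and Hr, and Hr and Trhr. Trh exceeded Klf9 in each of the 9 libraries all the same, while Thrb exceeded Slco1c1 in 8, Slco1c1 exceeded Hr in 7 and Hr exceeded Trhr in 8. With the longest transcript in place of merged exons, Slco1c1 ranked above Thrb and no other place changed.

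Trh (ENSMUSG00000005892, chr6:92242061-92244650, minus strand), the gene of the hormone precursor whose 5 copies are printed above, was read at 49.3, 45.2, 49.3, 33.8 and 30.4 CPM in K2, K4, K6, K8 and K10 and at 43.9, 48.0, 40.3 and 49.0 CPM in W1, W3, W9 and W11. K8 and K10 lay below every WT library, K2 and K6 lay above every WT library, and K4 lay among them. The KO mean of 41.6 ± 8.93 CPM (SD, n = 5) was thus close to the WT mean of 45.3 ± 4.01 CPM (n = 4) with more than double the spread. The log2 difference was -0.15 (SE 0.15, 95% interval -0.47 to 0.17, adjusted p = 0.880, exact permutation p = 0.492), and -0.04 (SE 0.11, adjusted p = 0.941) without K10. Markers of the paraventricular nucleus, where the TRH neurons that drive the pituitary lie, did not follow Trh as a list. Sim1, a transcription factor needed to form that nucleus, was lowest in K10 (28.3 CPM), W9 (30.8) and K8 (32.5) and lay between 35.5 and 41.9 CPM in the other 6. Otp, another such factor, was 33.6 CPM in K10, 50 in W9 and 56.8 to 67.6 in the other 7, with 64.3 in K8. Oxt, the oxytocin gene, was 27 CPM in K8 and 27.9 in K10, within the 19.9 to 31.8 CPM of WT, and Crh, at 0.622 to 1.41 CPM throughout, was highest in K8. Brs3 was lowest in K10 (2.62 CPM), like Trh, Sim1 and Otp, but in K8 it was 4.22 CPM, within the 3.58 to 4.7 CPM of WT. The part of these differences in the Trh values was not tested. In bulk tissue, fewer cells of a type and less RNA per cell cannot be told apart.

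Avp, the vasopressin gene of the same nucleus and a member of 2 of the marker lists, went its own way. It was 193, 197, 200, 189 and 255 CPM in the KO libraries and 122, 96.0, 123 and 103 CPM in the WT libraries, and rose by 0.90 on the log2 scale (SE 0.10, adjusted p = 0.0027), a call held without K10 (0.82, adjusted p = 2.02e-05) and lost with K10 counted as WT (adjusted p = 0.687). It was the only one of 6 paraventricular markers that passed the test, and Trh did not share its pattern.

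The profile of Trh across the 9 libraries was nearest to those of Eif3j1, Zfp503 and Gpr176, with root mean square differences of 0.0882, 0.0904 and 0.098 (log2). Trh itself varied by 0.241 around its mean, and the median difference over the 12071 genes that averaged 5 CPM or more was 0.281. None of the 3 differed between groups by the test (adjusted p 0.805 to 0.979).

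Trhr (ENSMUSG00000038760, chr15:44196135-44235912, plus strand), the receptor that carries the TRH signal, was 17.4, 20.2, 21.8, 15.8 and 14.3 CPM in K2, K4, K6, K8 and K10 and 19.8, 25.9, 19.2 and 20.7 CPM in W1, W3, W9 and W11. K8 and K10, the libraries with the least Trh, also had the least Trhr, and W3 had the most. The groups overlapped. The means were 17.9 ± 3.07 CPM in KO and 21.4 ± 3.07 in WT, a log2 difference of -0.26 (SE 0.14, 95% interval -0.57 to 0.04, adjusted p = 0.795, exact permutation p = 0.143). Without K10 it was -0.19 (SE 0.12, adjusted p = 0.640), and without W3 it was -0.17. Trhr2, a second TRH receptor of rodents, was near the lower limit of the table at 0.733 to 1.56 CPM in KO and 0.995 to 1.93 in WT.

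Slco1c1 (ENSMUSG00000030235, chr6:141524368-141570177, plus strand) makes a carrier with high affinity for T4 in brain vessels and astrocytes. It was the steadiest of the 9 in WT mice, at 37.2, 37.1, 36.3 and 38.2 CPM in W1, W3, W9 and W11. In K2, K6 and K8 it lay below all of these, at 33.6, 33 and 33.8 CPM, while K4 was within the WT range at 36.9 CPM and K10 above it at 41.8 CPM. The log2 difference was -0.06 (SE 0.08, 95% interval -0.24 to 0.13, adjusted p = 0.917) and, without K10, -0.12 (SE 0.07, adjusted p = 0.585). The 6 endothelial markers did not move together in K10. Cldn5, a tight junction gene of brain endothelium, was highest there (25.7 CPM, where K2 to K8 had 12.5 to 18.1), Flt1 (82.8 CPM against 92.9 to 98.4) and the glucose carrier Slc2a1 (69.6 CPM against 76.8 to 88.2) were the lowest of the KO libraries, and the summed level in K10, 263 CPM, lay within the range of the other KO libraries. The part of vessel content in the Slco1c1 values was not tested.

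Crym (ENSMUSG00000030905, chr7:120186380-120202111, minus strand) makes a cytosolic protein that holds T3 in the cell. Its levels were 2.58, 2.11, 2.93, 2.5 and 3.41 CPM in K2, K4, K6, K8 and K10 and 2.98, 1.35, 3.1 and 1.79 CPM in W1, W3, W9 and W11, each resting on an estimated 13.0 to 69.0 reads. W1 and W9 matched the higher KO libraries and W3 and W11 lay below all of them. The mean was 2.71 ± 0.491 CPM in KO and 2.31 ± 0.871 in WT, and the log2 difference of 0.28 had the widest interval of the 9 (SE 0.27, -0.31 to 0.87, adjusted p = 0.880). It was 0.20 without K10, 0.06 without W3 and 0.45 without W9. A difference of that size could not be told from none in these libraries.

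Dio2 (ENSMUSG00000007682, chr12:90724552-90738438, minus strand), the enzyme that makes T3 from T4, was 16.5, 17.9, 10.8, 20.8 and 18.4 CPM in K2, K4, K6, K8 and K10 and 20.5, 20.1, 17.0 and 13.5 CPM in W1, W3, W9 and W11. Each group had 1 low library, K6 and W11, and the other 7 lay between 16.5 and 20.8 CPM. The means of 16.9 ± 3.74 CPM in KO and 17.8 ± 3.26 in WT differed by less than either spread, with a log2 difference of -0.09 (SE 0.19, 95% interval -0.49 to 0.32, adjusted p = 0.946, exact permutation p = 0.714). It was the one gene of the 9 for which K10 was not an end of the range. Without K10 the difference was -0.13, and without K6 it turned to 0.06.

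Tanycytes, which hold much of the hypothalamic Dio2, were followed by 7 measured markers, whose summed level was 124 to 167 CPM in KO and 129 to 145 in WT. Gpr50, a marker among them at higher levels, was 32.2 CPM in K6 and 35.0 CPM in W11, the libraries with little Dio2, but lowest in K10 (29.7 CPM). Col23a1 and Scn7a were the lowest of the KO libraries in K6 (25.1 and 28.9 CPM). Both were the highest in K8 (36.7 and 55.2 CPM), which had the most Dio2. In W11 they were 30.4 and 45.6 CPM, where WT spanned 23.9 to 30.4 and 44 to 46.9 CPM. The part of tanycyte content in the Dio2 values was not tested. Rax, a tanycyte transcription factor, was 4.33 to 5.54 CPM in KO and 2.76 to 4.31 in WT with no overlap, and did not pass the test (log2 difference 0.34, adjusted p = 0.788, and 0.36 without K10). Cd59a, a complement inhibitor in the same list, did, at 18.1 to 23.1 CPM in KO against 7.58 to 15 in WT (log2 difference 1.0, SE 0.17, adjusted p = 0.0296), a call lost without any one of K2, K4, K6, K8, W1, W3 and W11 (adjusted p up to 0.144) and with K10 counted as WT (adjusted p = 0.624), and held without K10 (adjusted p = 0.00803). The Dio2 profile was nearest to those of Eya4, Mospd2 and Zfp59 (root mean square differences of 0.131, 0.148 and 0.149, against a spread of Dio2 itself of 0.292 and a median over 12071 genes of 0.332).

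Thra (ENSMUSG00000058756, chr11:98740638-98769006, plus strand), the main T3 receptor gene of brain, was the one member whose groups did not overlap. It was 402, 386, 399, 381 and 551 CPM in K2, K4, K6, K8 and K10 and 338, 373, 345 and 344 CPM in W1, W3, W9 and W11. The lowest KO library, K8, was just above the highest WT library, W3, and K10 was far above all the rest. Means were 424 ± 71.4 CPM in KO and 350 ± 15.8 in WT. The log2 difference was 0.26 (SE 0.10, 95% interval 0.04 to 0.48), with an unadjusted p of 0.0221 and an adjusted p of 0.688 by limma over all genes, and an exact permutation p of 0.0159, the smallest that 5 against 4 libraries allow. A gap between the groups was common in the table, since 490 genes (3.41%) had one, 240 of them (1.67%) with KO higher and 250 (1.74%) with KO lower.

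Without K10 the Thra difference was smaller and more even. The KO mean was 392 ± 10 CPM (n = 4) and the log2 difference 0.17 (SE 0.04, 95% interval 0.07 to 0.26, adjusted p = 0.140, exact permutation p = 0.0286, the smallest for 4 against 4). Groups then failed to overlap in 6.06% of all genes, 2.86% with KO higher. With K10 counted as WT the difference was 0.03 (adjusted p = 0.957). Thra therefore did not pass the adjusted threshold in any of these groupings, and its value turned on where K10 was placed.

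Gene-level reads of Thra pool receptors of unlike function. Transcripts of Thra with 1230 and 1476 coding bases (GENCODE M21, GRCm38) share their first 1111 coding bases and then part, the shorter going on to the end that binds T3 and the longer splicing to another exon whose product does not bind it. Below, the last 30 shared bases are in lower case and the first 60 that follow are in capitals.
Thra, 1230 coding bases, chr11:98764377-98764466: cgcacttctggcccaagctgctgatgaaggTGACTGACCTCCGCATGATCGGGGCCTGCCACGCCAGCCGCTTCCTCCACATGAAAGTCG
Thra, 1476 coding bases, chr11:98764377-98768217, spliced: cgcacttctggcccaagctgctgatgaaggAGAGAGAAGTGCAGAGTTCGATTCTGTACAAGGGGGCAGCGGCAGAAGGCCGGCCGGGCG
The deposited values do not separate the forms. The end of Thra also runs into Nr1d1, a clock repressor gene on the opposite strand (chr11:98767932-98775333). The genes share 1075 bases, 263 of them exonic in both, and 2 of 9 Thra transcripts reach exons of Nr1d1. Since the strand setting of the counting is not given in the sources used here, reads of the shared exons cannot be assigned with certainty.

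Nr1d1 was 138, 134, 135, 149 and 83.8 CPM in K2, K4, K6, K8 and K10 and 135, 136, 140 and 133 CPM in W1, W3, W9 and W11. K10 thus had the most Thra and the least Nr1d1, while the other 8 libraries showed no split of Nr1d1 by group (log2 difference -0.12, adjusted p = 0.897, and 0.03 without K10). The sum of both genes, a comparison added after the values were seen, was 521 to 634 CPM in KO (mean 552 ± 46.7) and 473 to 509 CPM in WT (mean 486 ± 16.2). The sum left the groups apart, as Thra did (log2 difference 0.18, adjusted p = 0.666, exact permutation p = 0.0159, and 0.0286 without K10). Thra made up most of the sum in every library, so this gap is not a separate result.

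Thrb (ENSMUSG00000021779, chr14:17660261-18038090, plus strand), the receptor through which T3 lowers Trh, was 55.4, 66.2, 64.3, 69.3 and 53.9 CPM in K2, K4, K6, K8 and K10 and 66.6, 58.9, 62.0 and 65.8 CPM in W1, W3, W9 and W11. K2 and K10 were the 2 lowest and K8 the highest, with the WT libraries between. The means of 61.8 ± 6.79 CPM in KO and 63.3 ± 3.59 in WT gave a log2 difference of -0.04 (SE 0.09, 95% interval -0.23 to 0.15, adjusted p = 0.949), which was 0.01 without K10.

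Klf9 (ENSMUSG00000033863, chr19:23141226-23168134, plus strand), a Krüppel-like factor induced by T3 and by glucocorticoids, was 109, 101, 97.6, 98.8 and 82 CPM in K2, K4, K6, K8 and K10 and 99.7, 102, 94.9 and 102 CPM in W1, W3, W9 and W11. Apart from K2 above and K10 below, the libraries of both groups lay within 94.9 to 102 CPM. The log2 difference was -0.03 (SE 0.08, 95% interval -0.21 to 0.14, adjusted p = 0.956) and 0.03 without K10 (SE 0.05).

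Hr (ENSMUSG00000022096, chr14:70552212-70573548, plus strand), a corepressor that binds the T3 receptors and is itself induced by T3, was 45.1, 43.1, 44.9, 40.7 and 45.5 CPM in K2, K4, K6, K8 and K10 and 38.3, 36.6, 42.4 and 43.0 CPM in W1, W3, W9 and W11. The KO libraries other than K8 lay above every WT library. The means were 43.8 ± 2.0 CPM in KO and 40.1 ± 3.11 in WT, with a log2 difference of 0.13 (SE 0.08, 95% interval -0.04 to 0.30, adjusted p = 0.825, exact permutation p = 0.0635). This was the second smallest exact p of the 9, and without K10 it was 0.114 with a log2 difference of 0.12. With all libraries the T3 target genes Klf9 and Hr thus gave log2 differences of opposite sign, and both intervals included 0. Without K10 both differences lay above 0 (0.03 for Klf9 and 0.12 for Hr), again with 0 inside both intervals.

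**Figure D2:**
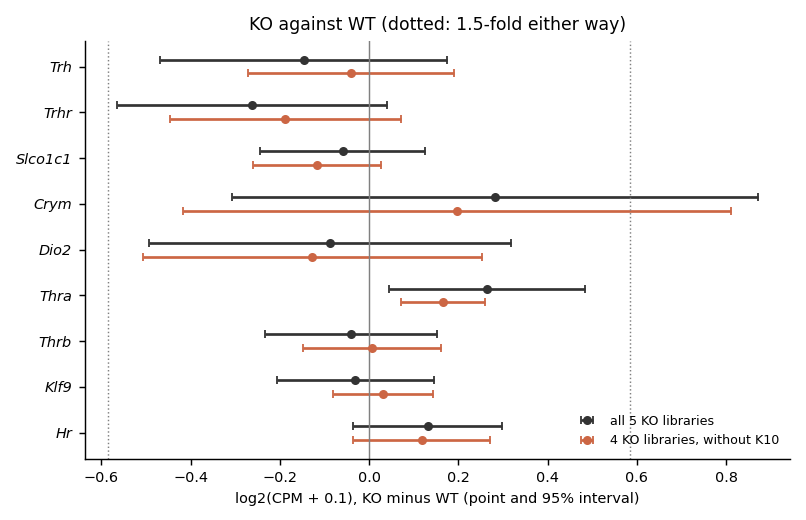
Log2 difference of KO minus WT on the log2(CPM + 0.1) scale for the 9 genes, with 95% intervals from limma, for all 5 KO libraries (black) and for the 4 KO libraries without K10 (orange). Only the Thra intervals, 0.04 to 0.48 and 0.07 to 0.26, leave out 0, and only the Crym intervals cross the dotted lines at a 1.5-fold change.

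K10 set much of the spread within the KO group. It was the highest of the 9 libraries for Slco1c1, Crym, Thra and Hr and the lowest for Trh, Trhr, Thrb and Klf9, so that it was an end of the range for 8 of the 9 genes. Over all genes K10 was an end of the range for 58.5%, and the other libraries for 11.4% to 21.8% each. The median distance of K10 from the mean of the other KO libraries was 0.31 (log2) over the 9 genes and 0.291 over all genes. Without K10 the log2 differences lay between -0.19 (Trhr) and 0.20 (Crym).

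**Figure D3:**
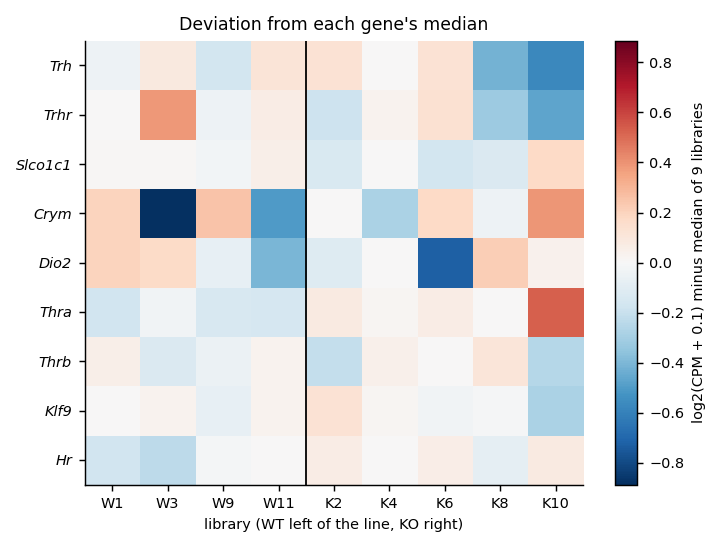
Deviation of each library from the median of the 9 libraries, on the log2(CPM + 0.1) scale, for each gene (rows) and library (columns, WT left of the line). K10 shows low Trh, Trhr, Thrb and Klf9 beside high Thra and Crym, while Crym in W3 and Dio2 in K6 are the deepest single departures.

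The rest of the pathway was read from 6 lists of 54 genes, of which 50 were measured. None passed the test with all libraries or without K10, nor with limma-voom. At an unadjusted p under 0.05 there were 6 (12%, against 6.5% of all genes), 2 higher and 4 lower in KO, and 3 (6%, against 3.41%) had groups that did not overlap. Of the 50, 21 lay above 0 and 29 below, with a median log2 difference of -0.03.

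**Figure D4:**
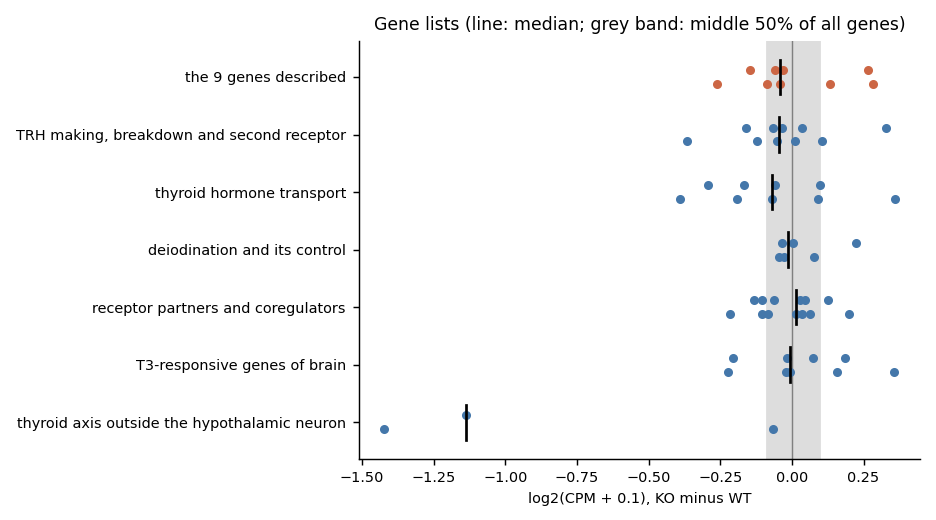
Log2 differences of KO minus WT, on the log2(CPM + 0.1) scale, for the 9 genes (orange) and the genes of 6 pathway lists (blue), 1 point per gene, with each median as a black line and the middle 50% of all genes, -0.09 to 0.10, in grey. List medians lie in or near the grey band except for the 3 genes of the thyroid axis outside the hypothalamic neuron, where Tshb and Cga lie at -1.14 and -1.42.

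Of 10 genes for making TRH, breaking it down and sensing it by Trhr2, 4 lay above 0 and 6 below (median -0.04). The prohormone convertases Pcsk1 (78.0 to 101 CPM in KO, 86.9 to 96.9 CPM in WT) and Pcsk2 (292 to 328 and 293 to 314 CPM), which cut the basic pairs flanking the copies printed above, overlapped between groups. Trhde, the ectoenzyme that destroys TRH in the synapse, was 24.7 to 33.8 CPM in KO and 28.4 to 32.2 in WT. Qpctl, a relative of the enzyme that forms the ring at the start of TRH, was 17.0, 19.7, 21, 19.5 and 13.4 CPM in K2, K4, K6, K8 and K10 and 14.7, 13.1, 14.6 and 14.6 CPM in WT. All KO libraries but K10 lay above the WT libraries (log2 difference 0.33, adjusted p = 0.707, and 0.43, adjusted p = 0.0756, without K10). Pgpep1, which removes that ring, was 13.9, 19.5, 19.2, 13.9 and 13.2 CPM in KO and 22.7, 19.4, 18.7 and 20.5 CPM in WT (log2 difference -0.37, adjusted p = 0.688, and -0.30 without K10).

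Of 9 measured hormone carriers, 3 lay above 0 and 6 below (median -0.07). Slco1a4, an organic anion carrier of brain vessels, was 40.3, 31.9, 37.7, 41.0 and 47.8 CPM in K2, K4, K6, K8 and K10 and 29.8, 32, 31.7 and 29.3 CPM in WT. Only K4 fell into the WT range, and the log2 difference was 0.36 (SE 0.11, adjusted p = 0.462, exact permutation p = 0.0317), and 0.29 without K10 (adjusted p = 0.192). Slc16a10, a carrier of T3 and aromatic amino acids, lay lower without overlap, at 4.38, 5.67, 4.21, 4.38 and 5.69 CPM in KO and 6.6, 7.15, 5.8 and 5.92 CPM in WT (log2 difference -0.39, SE 0.15, adjusted p = 0.703, exact permutation p = 0.0159, and -0.45 without K10).

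Of 6 measured genes that act with deiodinases, 3 lay above 0 and 3 below (median -0.01). Usp20, which removes ubiquitin from the Dio2 enzyme, was 84.6, 80, 84.3, 82.1 and 120 CPM in K2, K4, K6, K8 and K10 and 76.9, 71.3, 78.5 and 78.9 CPM in WT. The groups did not overlap, with little room between K4 and W11 (log2 difference 0.22, adjusted p = 0.788, and 0.12 without K10). Wsb1, which marks that enzyme for removal, was 101 to 143 CPM in KO and 123 to 151 in WT. The deiodinase genes Dio1 and Dio3 were on this list but were not found by name in the deposited table.

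Of 13 partners and coregulators of the receptors, 7 lay above 0 and 6 below (median 0.01), none at an unadjusted p under 0.05. The corepressor Ncor1, for one, was 311 to 334 CPM in KO and 293 to 340 in WT. Of 9 genes known to respond to T3 in brain, 4 lay above 0 and 5 below (median -0.01). Mbp, a myelin gene, was the one with an unadjusted p under 0.05, at 1960, 1810, 1820, 1860 and 1440 CPM in K2, K4, K6, K8 and K10 and 1900, 2010, 2130 and 2230 CPM in WT (log2 difference -0.22, adjusted p = 0.705, and -0.15 without K10). It was named after its values were seen.

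Tshb, the beta chain of TSH, is made in the pituitary and in the pars tuberalis that clings to the median eminence. It was 3.35, 7.12, 4.21, 7.04 and 3.91 CPM in K2, K4, K6, K8 and K10 and 16.1, 7.98, 9.9 and 10.9 CPM in W1, W3, W9 and W11. All KO libraries lay below all WT libraries, the nearest pair being K4 and W3. The log2 difference of -1.14 (SE 0.26, exact permutation p = 0.0159) did not pass the test over all genes (adjusted p = 0.192, and 0.0835 without K10), but did with limma library weights, which gave K10 little weight (-1.17, SE 0.25, adjusted p = 0.0294).

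Cga, the alpha chain that TSH shares with other pituitary hormones, was 0.876, 8.44, 0.366, 4.67 and 0.735 CPM in KO and 10.1, 2.69, 7.38 and 2.07 CPM in WT (log2 difference -1.42, SE 0.80, adjusted p = 0.822, and -1.16 without K10). The groups overlapped widely. The 4 measured pituitary markers, which include both genes, summed to 6.79 to 19.5 CPM in KO and 14.8 to 32 in WT. That sum is made mostly of Tshb and Cga themselves. Of the other markers, Pitx1 was 1.1 to 4.85 CPM in KO and 2.8 to 4.97 in WT, and Lhb was 0.793 to 1.65 CPM in KO and 0.809 to 1.35 in WT, both with overlap. Log2 differences of the 4 markers lay below 0 for 3 (Tshb, Cga and Pitx1) and above 0 for 1 (Lhb), with a median of -0.99. By limma 2 of the 4 had an unadjusted p under 0.05, Tshb and Pitx1, both lower in KO. For Cga the unadjusted limma p was 0.102. The part of pituitary tissue in the Tshb values was not tested. Tshr, the TSH receptor, was 5.86 to 7.35 CPM in KO and 5.51 to 8.2 in WT.

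**Figure D5:**
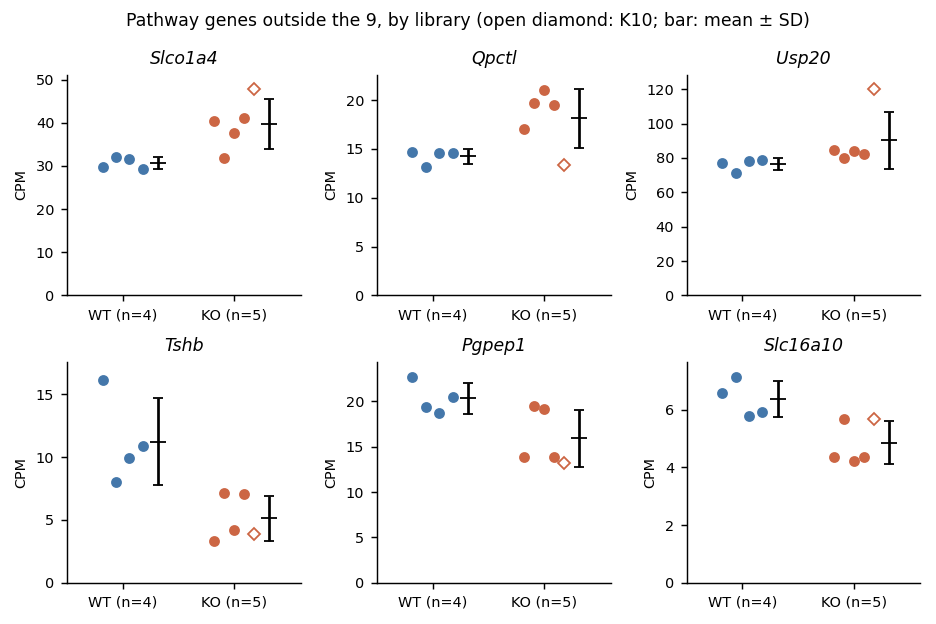
Normalized CPM in each library of the 6 pathway genes with the smallest unadjusted p in each direction, with the mean ± SD of 4 WT and 5 KO libraries and K10 as an open diamond. KO and WT points are apart for Usp20, Tshb and Slc16a10 and overlap for Slco1a4, Qpctl and Pgpep1.

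The tissue was checked by markers of neighbouring regions. The 10 hypothalamic markers were all measured, and summed to 672 to 828 CPM in KO and 595 to 641 in WT. Without Avp the other 9 summed to 483 to 597 CPM in KO and 476 to 538 in WT, with overlap. Agrp, a defining gene of the arcuate nucleus, was low in both groups (0.549 to 3.76 CPM in KO and 1.14 to 2.8 in WT). Summed levels of the 6 thalamic markers (714 to 814 CPM in KO and 773 to 804 in WT), the 6 striatal markers (152 to 163 and 157 to 168 CPM), the 6 astrocyte markers (1718 to 2235 and 1756 to 2055 CPM), the 6 endothelial markers (249 to 270 and 238 to 267 CPM), the 4 measured cortical and hippocampal markers (12.1 to 17.0 and 11.7 to 15.9 CPM) and the 3 measured choroid plexus markers (36.8 to 49.7 and 31.9 to 45.7 CPM) overlapped between groups. Avp and Cd59a were the only genes of all marker lists that passed the test.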

How the data were processed

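RNA of the hypothalamus was measured by RNA sequencing in 5 KO and 4 WT mice. The authors checked reads with FastQC 0.11.8, trimmed them with Trimmomatic 0.38, aligned them to GRCm38.p6 with STAR 2.5.1a, estimated gene counts with RSEM 1.3.0, kept genes with at least 1 CPM in at least 5 samples, and scaled by TMM (edgeR). The deposited signal is this normalized CPM. Their comparison (fold changes, averages and p-values) was not used beyond its pairing of IDs and symbols. In addition, 1 column matching no sample was not used, though its header starts with W like those of the WT libraries. Whole reads could not be recovered for nearly all genes: 81.3% to 86.6% of values up to 2.5 CPM were whole within 0.03 reads, so depths are estimates. Here limma 3.58.1 (R 4.3.3; trend; condition only) was fitted to log2(CPM + 0.1), which understates changes of low genes, adjusted by Benjamini-Hochberg over the table (14351 genes; calls under 0.05). Exact two-sided permutation tests over libraries used scipy 1.17.1. Simulated data served as a test. Members, lists and tests were chosen with earlier results of these data known. Beside the 9 genes, Clic1 and Nr1d1, the rule named the 3 pathway genes with the smallest unadjusted p per direction, the first 2 measured markers of each list, any gene of a list past the threshold, and the 3 profiles nearest to Trh and Dio2; other list genes are examples of known roles, chosen with these results known. K10 was grouped by its description and kept there after its Clic1 level was read. Positions came from GENCODE M21, promoters from RefSeq. Alternatives were other pseudocounts, a filter, scalings, variance models, library weights, limma-voom, and other placements or omission of libraries.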

Additional observations from a re-analysis of the deposited data

Results flagged for a closer look

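In groups of 4 or 5 libraries, a library far from the rest of its group was marked in 9 of 76 gene groups tested, where chance marks about 1 in 20, and 7 of the 9 were K10. In K10, high among the KO libraries, were Thra at 551 CPM (the others 381 to 402), Usp20 at 120 CPM (80 to 84.6), Avp at 255 CPM (189 to 200), Gfap, an astrocyte filament gene, at 614 CPM (332 to 410), and Neurod2, a cortical neuron gene, at 3.26 CPM (2.5 to 2.7). Low in K10 were Nr1d1 at 83.8 CPM (134 to 149) and Otp at 33.6 CPM (61.7 to 67.6). In W3, among the WT libraries, Qpctl was low at 13.1 CPM (14.6 to 14.7) and Tcf7l2, a thalamic marker, was high at 57.6 CPM (37.2 to 40.4). No cause was tested.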

How the results depend on the processing

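No paired analysis was made, because the sources used here give no litter or other pairing of KO with WT mice. None of the 9 genes was called under any alternative run. Of 171 recomputed log2 differences of the 9 genes, 164 kept their direction and 7 turned sign, all at an adjusted p over 0.8: Trh with K10 as WT (0.0732), Dio2 without KO replicate 6 (0.0645), Thrb with K10 as WT (0.0532) and without K10 (0.0073), and Klf9 with library weights (0.0209), with K10 as WT (0.0869) and without K10 (0.0311). The cause was not tested. Leaving out single libraries gave Crym 0.0637 (without W3) to 0.445 (without W9), Trhr -0.338 to -0.168 (without W3), Trh -0.215 to -0.0409, Slco1c1 -0.117 to -0.0307, Thra 0.166 to 0.299, Hr 0.0886 to 0.166, Dio2 -0.212 to 0.0645, Thrb -0.083 to 0.0073, Klf9 -0.0721 to 0.0311 and Clic1 -1.94 to -1.62. Over all genes, 41 calls became 27 when only genes averaging 5 CPM or more were tested, which leaves out Clic1 and Crym, 135 with library weights, 5 with K10 as WT, and 18 to 87 without single libraries (18 without W1, 87 without K10). Pathway calls went from 0 to 1 (Tshb) with library weights. Clic1 kept its direction but missed the threshold with K10 as WT (-1.51, adjusted p = 0.501) and without W1, W3 or W9 (-1.73, -1.80 and -1.74, adjusted p up to 0.0893). Clic1, Crym, Cga and Trhr2 were low genes, and the part of read depth in their spread was not tested.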
